A study of Bos taurus with 28 samples.

Results

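The genes examined here were 46 leukocyte and Kupffer cell genes of the bovine liver: 5 genes shared by all leukocytes, 19 lymphoid genes of T, natural killer and B cells, 16 myeloid genes and 6 genes of antigen presentation. They were found on the array by their annotated symbol, with the probe set of highest mean signal taken for each gene. A probe set that carries exactly 1 gene symbol was present for 36 of the 46 genes, of 9155 genes named in this way on the array. The annotation used here did not list GZMA, CD79B, CCR7, CD163, MARCO, LYZ, SPI1, MRC1, CD74 and CIITA. In all, 32 of the 36 genes passed the filter on low signal, and CXCR4, CD79A, ITGAM and TLR4 did not. The highest signal of CXCR4 on any array was 347, just under the lowest value that passed, 352. IL34 and KLRK1 passed with highest signals of 450 and 451, each through 1 array only. For IL34 this was replication 3 of the group without hormone, and for KLRK1 replication 5 of the group with both hormones.

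Liver biopsies came from ovariectomized, dry (non-lactating) Holstein cows that were exposed for 14 days to no hormone (CO), to estradiol from an intradermal ear implant (E2T), to progesterone (P4T) or to both hormones (E2P4T). The treatment protocol names a vaginal device as the source of progesterone, whereas the source label of the P4T samples calls it intradermal. Each group had 7 arrays, 28 in all, from mRNA hybridised to the Affymetrix Bovine GeneChip. Cows received the treatments in turn in a Latin square. The arrays therefore share cows, but the labels give neither cow nor period, and the p-values below treat the arrays as independent.

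The liver holds resident macrophages, the Kupffer cells, which line the sinusoids and clear bacteria and spent red blood cells from portal blood, together with T cells, natural killer cells and B cells that pass through or reside there. T cells signal through the CD3 chains (CD3D, CD3E, CD3G and CD247), which carry activation motifs that LCK and ZAP70 act upon, and TYROBP and FCER1G carry the same kind of motif in myeloid and natural killer cells. Macrophages depend on CSF1R, a receptor with the ligands CSF1 and IL34, and sense bacterial products through CD14, TLR2 and TLR4. Peptides are presented to CD4 T cells on MHC class II molecules, here BOLA-DRA and BOLA-DRB3, which are loaded with the help of BOLA-DMA and BOLA-DMB.

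Replication 5 of E2P4T stood apart from all other arrays in these genes. Among the tested genes, 14 of 32 (43.8%) had a lower signal there than on any of the 26 arrays that remained when P4T replication 4 was also set aside, against 14.2% of all 18732 tested probe sets. The loss was in leukocyte-wide and myeloid genes: 4 of 4 and 8 of 9 were below all other arrays, but only 1 of 15 lymphoid genes, PRF1, and 1 of 4 antigen presentation genes, BOLA-DRA. On the log2 scale used throughout, CD14, the lipopolysaccharide co-receptor of macrophages, was at 4.63 on this array and between 9.95 and 13.72 on the 26 others. CSF1R was at 5.91 against 10.2 to 11.39. The leukocyte integrin chain ITGB2 was at 4.07 against 9.33 to 10.52, and the adaptor TYROBP was at 6.15 against 9.97 to 12.04. The macrophage gene AIF1 was at 8.87 against 11.62 to 12.88. CD4, KLRK1 and BOLA-DMA were instead higher on this array than on all others, with CD4 at 9.2 and KLRK1, the activating receptor NKG2D of natural killer and CD8 T cells, at 8.82. These 3 are 9.38% of the genes, whereas 40.1% of all tested probe sets were above all other arrays there, and the median of all tested probe sets was 9.5 against 8.49 to 9.

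Other markers on the same array moved too. The mean log2 signal of 20 hepatocyte genes was 10.08 there and 14.96 to 15.92 on the 26 others, with 18 of the 20 below all of them. The mean of 9 kidney nephron genes was 10.16 against 5.45 to 8.21, with 7 of the 9 above all other arrays, and the mean of 4 bile duct genes was 12.05 against 6.38 to 8.54. Its hybridisation spikes had a mean of 18.27 against 12.95 to 16.26. Replication 4 of P4T also had high spikes, 17.31, whereas its hepatocyte genes averaged 15.35, inside the span of the 26 arrays. In P4T replication 4, 7 of 32 genes (21.9%) were below all 26 other arrays, against 12.9% of all tested probe sets. Among them were 2 of the 4 antigen presentation genes, BOLA-DRB3 at 9.74 and BOLA-DRA at 11.31, and CD3G at 3.36. The part of tissue content or hybridisation in these values was not tested. The study set aside an outlying array of P4T and another of E2P4T. The labels do not name them, and whether they are among the arrays analysed here is not given in the sources used here. Results are given below with all 28 arrays and without these 2.

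**Figure D1:**
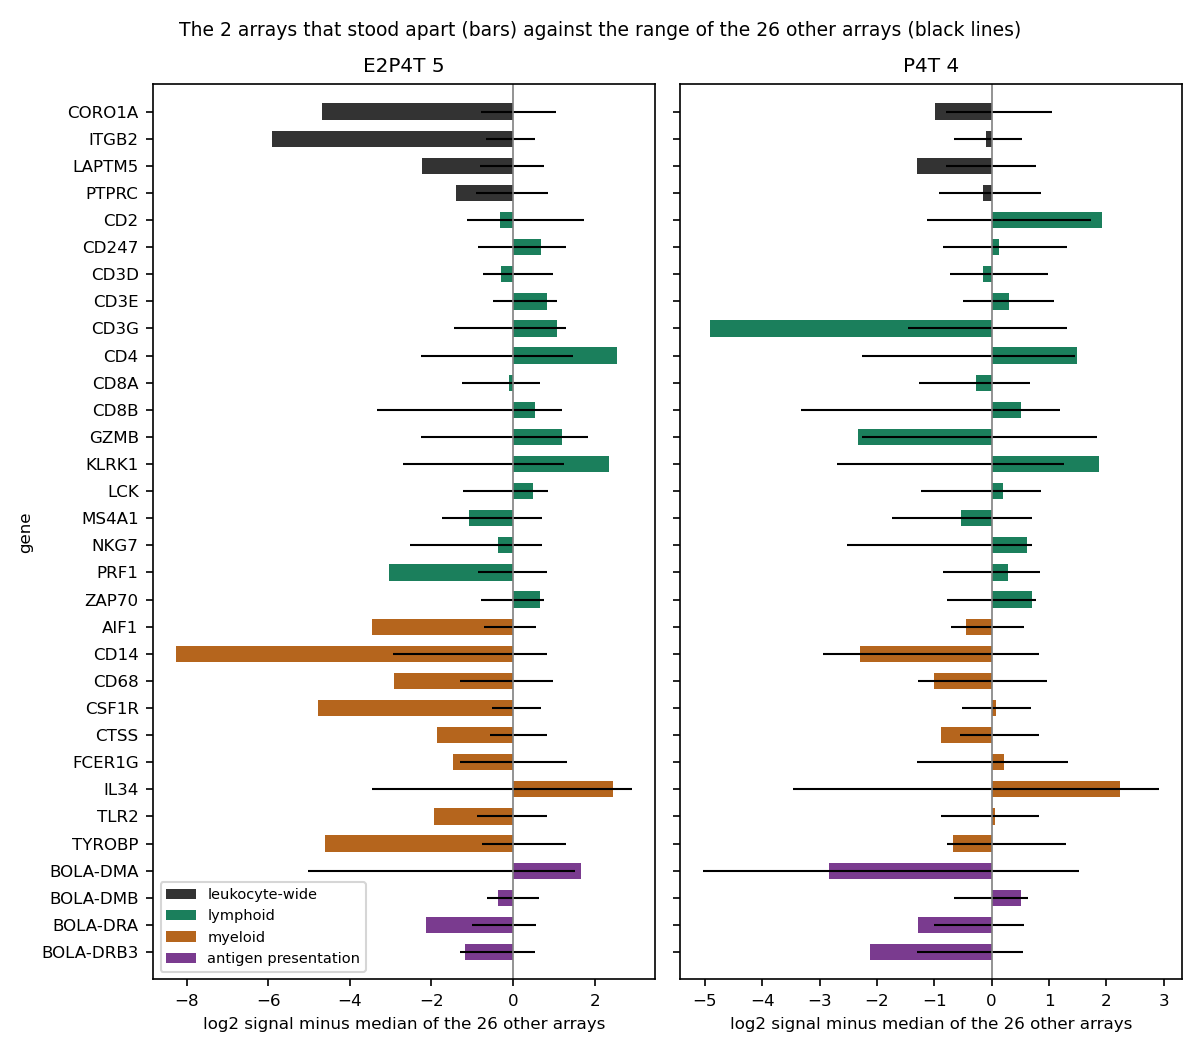
Log2 signal of the 32 tested genes on E2P4T replication 5 (left) and P4T replication 4 (right), drawn as bars from the median of the 26 other arrays, with black lines for the range of those 26. On E2P4T replication 5 the leukocyte-wide genes and all myeloid genes but IL34 extend below the black lines, CD14 by the most, whereas lymphoid genes other than PRF1, CD4 and KLRK1 stay within them.

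No leukocyte or Kupffer cell gene differed between CO and a treatment at an adjusted p under 0.05. The lowest adjusted p of the 32 genes (limma, Benjamini-Hochberg over 18732 probe sets) was 0.87 for E2T, 1 for P4T and 0.93 for E2P4T, and 0.4, 0.59 and 0.49 without the 2 arrays. No other probe set passed either. At an unadjusted p under 0.05, 4 of the 32 genes were lower in E2T and none was higher, with 5.42% of all probe sets past this threshold and 3.96% lower. In P4T 1 gene was past it, lower, with 2.78% of all probe sets, and in E2P4T 2 genes were past it, 1 in each direction, with 4.9%. In the F test over all groups no gene was past it (2.12% of all probe sets). Without the 2 arrays 4 genes were past it in E2T, all lower (10.2% of all probe sets, 7.17% lower), 3 in P4T (8.2%), 4 in E2P4T, all lower (9.5%, and 6.51% lower), and 3 in the F test (5.7%). The share of lower genes was above that of all probe sets in E2T and, without the 2 arrays, in E2P4T, but each of these shares rests on 4 genes. Among the 4 in both cases were IL34 and KLRK1, each of which passed the filter through 1 array only. The single genes below are descriptions at this unadjusted limma threshold, and for those past it against CO a two-sided exact permutation test over the arrays of both groups, added after the data were seen, is given as well. That test uses the same arrays on which these genes were picked and also treats the arrays as independent. Its p-values, some of them lower than those of limma, are no separate support. In tissue biopsies, fewer cells of a type and less RNA per cell cannot be told apart. The 3 comparisons with CO share its 7 arrays, and the labels do not say which arrays come from separate cows, so the p-values measure the spread between these arrays.

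**Figure D2:**
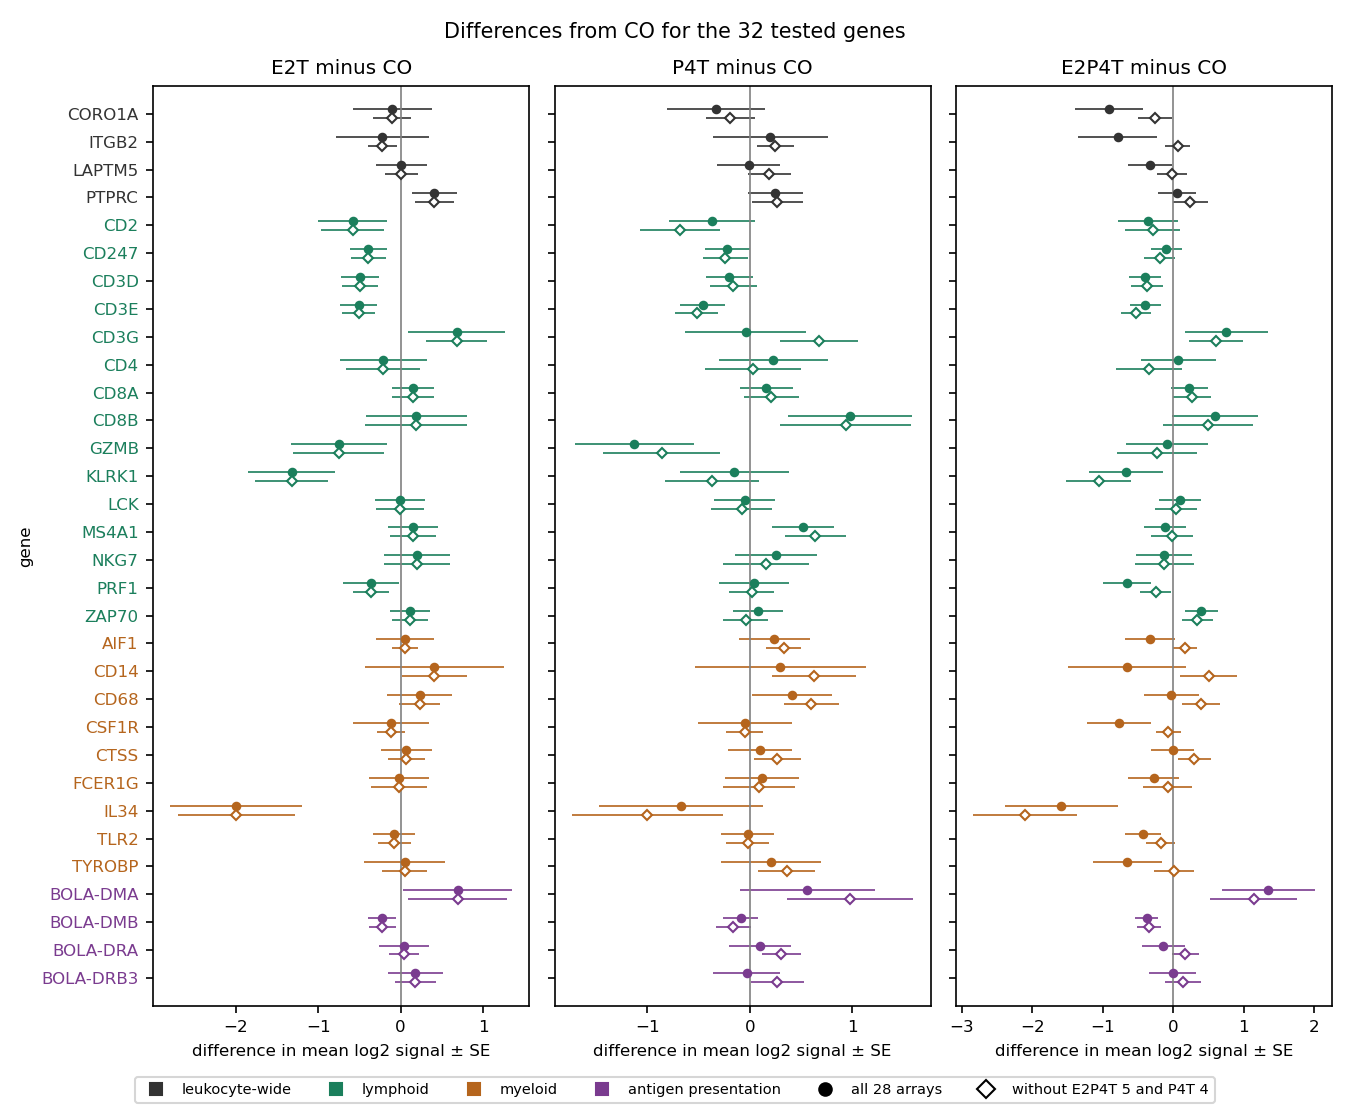
Difference in mean log2 signal from CO, with the standard error of the fit, for the 32 tested genes in E2T, P4T and E2P4T. Filled circles use all 28 arrays and open diamonds leave out E2P4T replication 5 and P4T replication 4. Differences lie on both sides of 0 within each gene group. The myeloid and leukocyte-wide circles of E2P4T, which lie mostly below 0, move to higher values as diamonds, except IL34, which moves from -1.59 to -2.1.

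By gene group, the median difference of the 32 genes from CO was 0, 0.06 and -0.21 in the order E2T, P4T, E2P4T, and 0, 0.13 and -0.02 without the 2 arrays. Over all tested probe sets the medians were -0.1, -0.03 and -0.02, and -0.1, -0.09 and -0.09 without the 2 arrays. The medians of the arrays also differed between groups, although the mean of the middle 96% of signals was 1000 on every array. Without the 2 arrays, the mean of the array medians differed from CO by -0.14 in E2T, -0.15 in P4T and -0.13 in E2P4T. A difference without the 2 arrays is higher by that much once arrays are centred on their medians. The highest CO medians were those of replications 3 and 7, at 9 and 8.93. In the myeloid genes, 9 of 9 were below CO in E2P4T with a median of -0.43. Without the 2 arrays 4 of 9 were below and the median was 0.01. A similar shift was seen in the leukocyte-wide genes, with a median of -0.56 in E2P4T (3 of 4 below CO) that became 0.02 (2 of 4 below). The lymphoid genes had medians of -0.21, -0.04 and -0.1 in E2T, P4T and E2P4T, with 9, 8 and 9 of 15 below CO (60%, 53.3% and 60%). Of all probe sets, 59.8%, 53.7% and 51.7% were below CO.

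The mean log2 signal over the genes of a group, taken on each array, overlapped between all 4 treatment groups. The lymphoid mean (16 genes) was 8.29 ± 0.33 (SD, 7 arrays) in CO and 8.07 ± 0.34 in E2T, against 8.3 ± 0.22 under P4T and 8.21 ± 0.38 under E2P4T. The leukocyte-wide mean (5 genes) was 9.36 ± 0.52, 9.21 ± 0.38, 9.29 ± 0.26 and 8.79 ± 1 in the same order, and 9.16 ± 0.2 in the 6 other E2P4T arrays. The antigen presentation mean (4 genes) was 10.46 ± 0.57, 10.63 ± 0.51, 10.6 ± 0.59 and 10.67 ± 0.44. These differences were within the spread between arrays. The myeloid mean (11 genes) was 9.91 ± 0.24 in CO and 9.6 ± 0.16 in E2T, a difference of -0.31 that exceeds both SDs, with arrays from 9.64 to 10.37 in CO and from 9.38 to 9.82 in E2T. That mean includes dim genes: the median difference of the 9 tested myeloid genes in E2T was 0.05, and the difference between the means was 0.07 when only probe sets above the median of mean signal were used. The myeloid mean was 9.81 ± 0.3 in P4T and 9.34 ± 1 in E2P4T (9.7 ± 0.3 in the 6 other arrays).

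**Figure D3:**
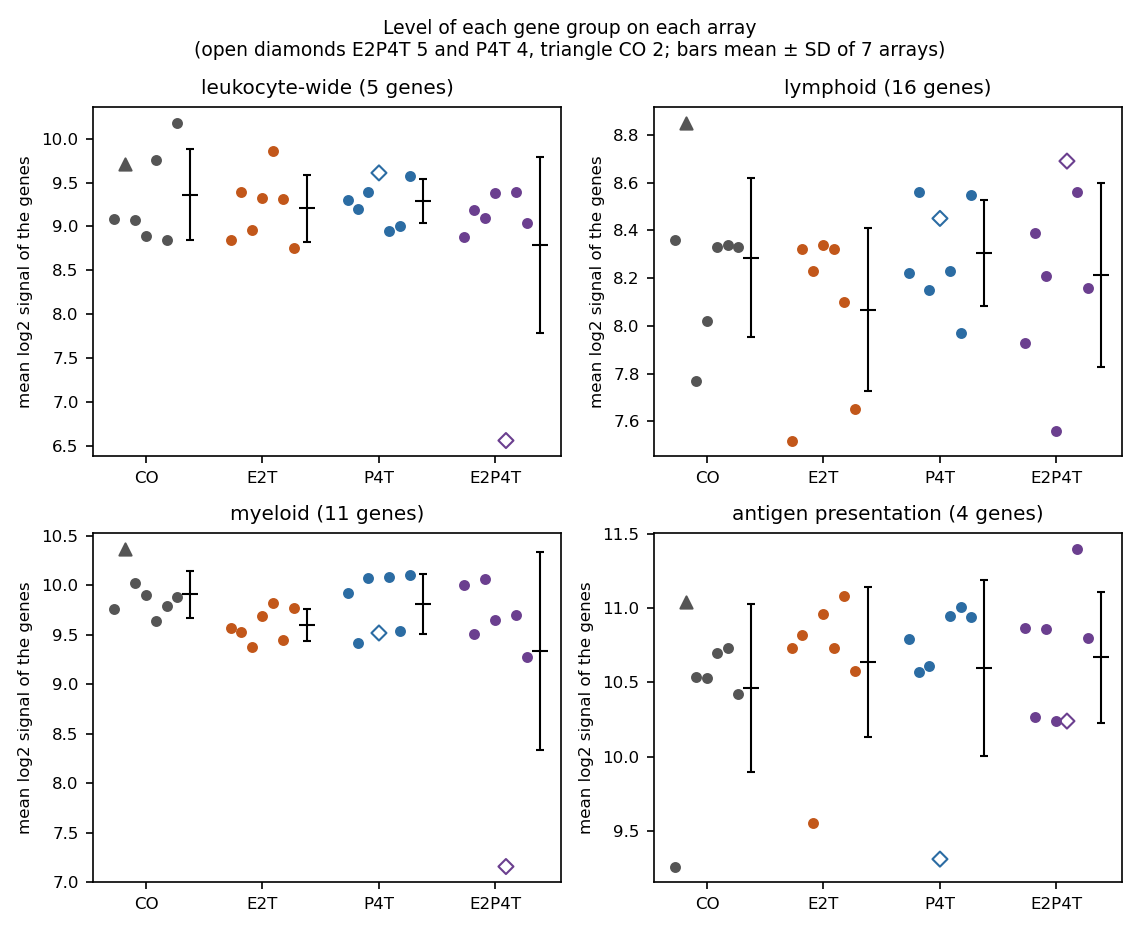
Mean log2 signal over the genes of each group on every array, by treatment, with the mean ± SD of 7 arrays as black bars. E2P4T replication 5 (open diamond) lies at 6.56 for the leukocyte-wide genes and 7.16 for the myeloid genes, below all other arrays, and within the other arrays for the lymphoid genes, whereas CO replication 2 (triangle) has the highest lymphoid mean, 8.85, and the highest myeloid mean, 10.37.

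Among the T cell genes, CD3E and CD3D, whose products pair as a dimer of the T cell receptor complex and whose genes are neighbours in the cattle genome, were lower after each treatment in the mean. CD3E ranged from 9.14 to 10.38 (median 9.81) in CO, from 8.8 to 9.8 (median 9.28) in E2T, from 8.93 to 9.76 (median 9.22) in P4T and from 8.96 to 10.14 (median 9.21) in E2P4T. The ranges overlapped, but 6 of 7 E2T arrays, 7 of 7 P4T arrays and 6 of 7 E2P4T arrays were below the CO mean of 9.76. The difference for CD3E was -0.51 ± 0.22 (SE) in E2T (exact permutation p = 0.028), -0.46 ± 0.22 in P4T (0.04) and -0.4 ± 0.22 in E2P4T (0.098). The P4T and E2P4T differences were -0.52 and -0.53 without the 2 arrays, with exact permutation p = 0.034 and 0.024. The lowest adjusted p of CD3E was then 0.42 (limma).

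CD3D ranged from 8.64 to 9.7 (median 8.81) in CO, from 8.09 to 8.77 (median 8.44) in E2T, from 8.48 to 9.21 (median 8.8) in P4T and from 7.98 to 9.41 (median 8.42) in E2P4T. All 7 E2T arrays were below the CO mean of 8.98 and 5 of the 7 were below the lowest CO array. Its difference in E2T was -0.49 ± 0.23 (exact permutation p = 0.0087, unadjusted p = 0.041 and adjusted p = 0.87 by limma), and -0.2 in P4T and -0.4 in E2P4T. A second, dimmer probe set of CD3D gave -0.99 in E2T, -0.69 in E2P4T and -1.67 in P4T, where it was past the unadjusted limma threshold. The E2T difference missed the unadjusted limma threshold on leaving out any of 4 single arrays for CD3E and any of 7 for CD3D. Without CO replication 2, which held the highest signal of both genes, the E2T differences were -0.41 for CD3E and -0.37 for CD3D, and the CD3E difference in P4T was -0.36, all short of that threshold. With arrays centred on their medians they were -0.37 for CD3E and -0.35 for CD3D in E2T, both short of it, whereas CD3E in P4T, at -0.42, was past it.

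The other CD3 chains did not share this pattern as a set. CD247, the zeta chain, had a difference of -0.39 ± 0.22 in E2T, with -0.22 under P4T and -0.1 under E2P4T. CD3G, a gene next to CD3D that was singled out after its values were seen, was higher in the mean in E2T, by 0.68 ± 0.59, with CO arrays from 6.82 to 8.97 and E2T arrays from 7.71 to 9.03. In P4T CD3G differed by -0.04 with the array at 3.36 and by 0.68 without it. CD8A, a co-receptor chain of cytotoxic T cells, ranged from 8.81 to 10.55 (median 9.99) in CO and differed by 0.15, 0.16 and 0.23.

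KLRK1 had the largest difference of the lymphoid genes, at a probe set that passed the filter only through E2P4T replication 5. It ranged from 6.12 to 7.72 (median 7.26) in CO, from 3.77 to 6.47 (median 6.19) in E2T, from 5.57 to 8.33 (median 7.09) in P4T and from 4.8 to 8.82 (median 6.1) in E2P4T. All 7 E2T arrays lay below the CO mean of 7.12, and the E2T and CO ranges overlapped between 6.12 and 6.47. The difference was -1.32 ± 0.53 in E2T (exact permutation p = 0.0029), -0.15 in P4T (0.71) and -0.67 in E2P4T (0.24). Without E2T replication 1, at 3.77, the E2T difference was -0.98, short of the unadjusted limma threshold. The 2 arrays that stood apart held the highest KLRK1 signals of P4T and E2P4T, and without them the E2P4T difference was -1.06 (exact permutation p = 0.023). CO replication 3, which was kept, held the highest KLRK1 signal of the 26 other arrays, 7.72. Between treatments, KLRK1 was lower in E2T than in P4T by a difference of -1.18 ± 0.53, and of -0.95 without the 2 arrays, both past the unadjusted threshold with an adjusted p of 1 (limma).

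PRF1, which encodes the pore-forming protein of cytotoxic granules, ranged from 8.38 to 9.7 (median 8.97) in CO and from 8.21 to 8.94 (median 8.64) in E2T. Its difference in E2T was -0.36 ± 0.34, with 7 of 7 arrays below the CO mean. In E2P4T it was -0.66, and -0.25 without the 2 arrays. MS4A1, which encodes the B cell surface protein CD20, went the other way under progesterone alone: it ranged from 7.55 to 9.63 (median 9.23) in CO and from 8.75 to 9.98 (median 9.52) in P4T. The difference in P4T was 0.52 ± 0.3 (exact permutation p = 0.17). Without the 2 arrays it was 0.64 ± 0.3, past the unadjusted limma threshold (adjusted p = 0.59) but with an exact permutation p = 0.089. In E2P4T, MS4A1 differed from CO by -0.12, and from P4T by -0.64.

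**Figure D4:**
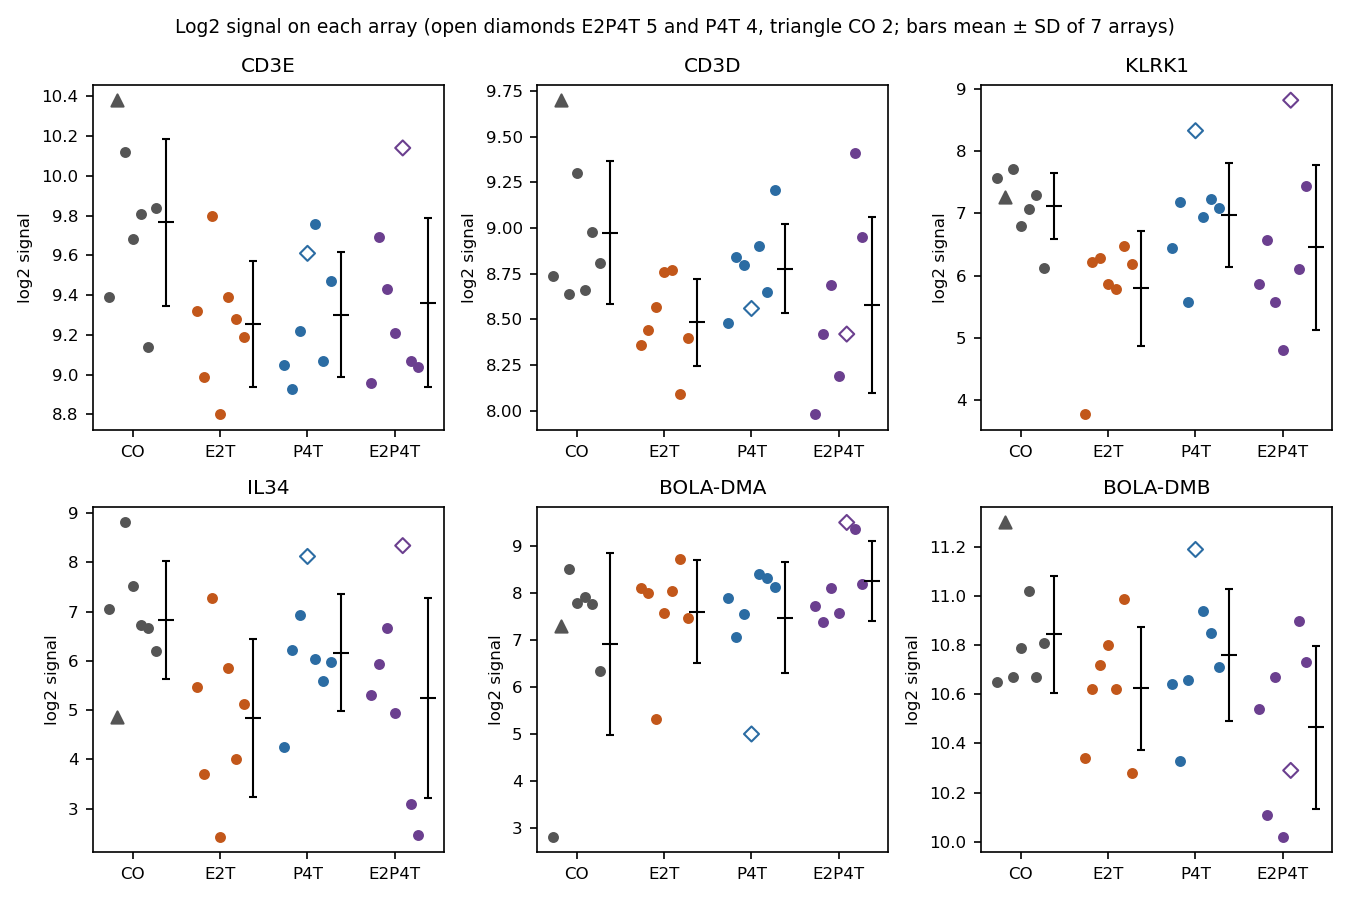
Log2 signal of 6 genes on every array by treatment, with mean ± SD of 7 arrays as black bars. CD3E and CD3D show treated arrays mostly under the CO mean with CO replication 2 (triangle) on top, KLRK1 and IL34 show the open diamonds of P4T and E2P4T above the rest of their groups, and for BOLA-DMA the lowest CO array is at 2.81.

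Among the myeloid genes, the differences of CSF1R, CTSS and TLR2 from CO were small beside the range of the CO arrays once E2P4T replication 5 was set aside. CSF1R ranged from 10.57 to 11.16 (median 10.72) in CO, from 10.2 to 11.31 (median 10.64) in E2T, from 10.51 to 11.39 (median 10.79) in P4T and from 5.91 to 11.04 (median 10.7) in E2P4T. Its difference was -0.12 ± 0.46 in E2T, with -0.05 ± 0.46 under P4T and -0.77 ± 0.46 under E2P4T, and without the 2 arrays the last was -0.07 ± 0.18. CTSS, a lysosomal protease of antigen-presenting cells, ranged from 12.79 to 14.14 in CO and differed by 0.07, 0.1 and -0.01. TLR2 ranged from 9.27 to 10.78 in CO and differed by -0.08, -0.02 and -0.43, the last of which was -0.18 without the 2 arrays.

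CD14 had the widest spread among the bright myeloid genes. It ranged from 10.83 to 12.9 (median 12.23) in CO, from 9.95 to 13.72 (median 13.02) in E2T, from 10.59 to 13.35 (median 13.1) in P4T and from 4.63 to 13.26 (median 12.84) in E2P4T. Above the highest CO array lay 5 of 7 E2T arrays, 4 of 7 P4T arrays and 3 of 7 E2P4T arrays. The differences were 0.41 ± 0.84 in E2T, 0.3 under P4T and -0.66 under E2P4T, and 0.41 ± 0.39, 0.63 ± 0.41 and 0.5 ± 0.41 without the 2 arrays, all short of the unadjusted threshold. A second, dimmer probe set of CD14 gave 0, -0.17 and -0.96 with all arrays and 0, 0.1 and -0.02 without the 2 arrays, so the probe sets of CD14 did not give the same differences.

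CD68, a lysosomal glycoprotein of macrophages, ranged from 9.75 to 12.01 (median 10.72) in CO, from 10.04 to 11.59 (median 11.01) in E2T, from 10.04 to 11.64 (median 11.25) in P4T and from 8.13 to 11.8 (median 10.97) in E2P4T. In P4T, 6 of 7 arrays were above the CO mean of 10.76 but none was above the highest CO array. The difference in P4T was 0.41 ± 0.39 (exact permutation p = 0.24). It was 0.6 ± 0.27 without the 2 arrays, past the unadjusted limma threshold (adjusted p = 0.59) but with an exact permutation p = 0.068.

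IL34, the alternative ligand of CSF1R and not itself a leukocyte marker, had the largest difference of all tested members, at a dim probe set near the filter. It passed the filter only through CO replication 3, at 8.81. It ranged from 4.87 to 8.81 (median 6.72) in CO, from 2.43 to 7.28 (median 5.13) in E2T, from 4.25 to 8.12 (median 6.04) in P4T and from 2.46 to 8.34 (median 5.3) in E2P4T. In E2T 6 of 7 arrays were below the CO mean of 6.83, and 3 were below the lowest CO array. The difference was -1.99 ± 0.8 in E2T (exact permutation p = 0.023), -0.67 in P4T (0.32) and -1.59 in E2P4T (0.1). The P4T and E2P4T differences were -1 and -2.1 without the 2 arrays, with exact permutation p = 0.13 and 0.022. In each group the highest IL34 signal lay on the array with the highest median of all tested probe sets. These were CO replication 3, E2T replication 3, P4T replication 4 and E2P4T replication 5, of which the CO and E2T arrays were kept. CO replication 3 held the highest signal of the 26 arrays for 21.4% of all tested probe sets. The lowest adjusted p of IL34 was 0.4 (limma). Leaving out single arrays moved the E2T difference between -2.4 and -1.59, and it missed the unadjusted limma threshold without CO replication 3 and without E2T replication 4.

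Among the antigen presentation genes, the class II chains BOLA-DRA and BOLA-DRB3 stayed within the spread of CO. BOLA-DRA ranged from 11.96 to 13.16 (median 12.49) in CO and had medians of 12.6, 12.8 and 12.48 in E2T, P4T and E2P4T, with differences of 0.04, 0.1 and -0.14 (standard error 0.3 each). BOLA-DRB3 ranged from 11.02 to 12.41 (median 11.58) in CO and differed by 0.18, -0.03 and -0.01.

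The paired chains of the peptide-loading molecule DM, which are neighbouring genes, had differences of opposite sign in E2P4T. BOLA-DMA ranged from 2.81 to 8.51 (median 7.77) in CO and from 7.38 to 9.51 (median 8.12) in E2P4T, with a difference of 1.35 ± 0.66 that was past the unadjusted limma threshold (adjusted p = 0.93) but not past it in the exact permutation test (p = 0.087). The lowest CO value came from 1 array, CO replication 1, without which the difference was 0.66. Without the 2 arrays that stood apart it was 1.14. Both were short of the threshold. BOLA-DMB ranged from 10.65 to 11.3 (median 10.79) in CO and from 10.02 to 10.9 (median 10.54) in E2P4T, and 4 of 7 E2P4T arrays were below the lowest CO array. Its difference in E2P4T was -0.38 ± 0.17 (exact permutation p = 0.034), and -0.35 ± 0.17 without the 2 arrays (0.062). With arrays centred on their medians the BOLA-DMB difference was -0.38 and without CO replication 2 it was -0.3, both short of the unadjusted limma threshold.

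Of the leukocyte-wide genes, PTPRC, which encodes CD45, ranged from 9.99 to 11.5 (median 10.55) in CO, from 10.71 to 11.39 (median 11.05) in E2T, from 10.42 to 11.59 (median 10.75) in P4T and from 9.5 to 11.76 (median 10.62) in E2P4T. All 7 E2T arrays were above the CO mean of 10.64, with a difference of 0.41 ± 0.27 (exact permutation p = 0.097). LAPTM5, a lysosomal membrane protein of blood cells, ranged from 11.32 to 12.89 in CO and differed by 0.01, -0.01 and -0.33 (-0.02 without the 2 arrays in E2P4T). CORO1A, an actin-binding protein of leukocytes, ranged from 9.14 to 10.67 (median 9.74) in CO and from 4.93 to 10.16 (median 9.36) in E2P4T, a difference of -0.91 ± 0.48 (exact permutation p = 0.18) that was -0.26 ± 0.24 without the 2 arrays. ITGB2 had a difference of -0.79 ± 0.56 in E2P4T and of 0.06 ± 0.18 without them. The 2 broad leukocyte genes PTPRC and LAPTM5 did not rank the CO arrays alike: CO replication 3 had the highest PTPRC signal of CO, 11.5, and the lowest LAPTM5 signal, 11.32, and CO replication 2 had the highest LAPTM5 signal, 12.89, with PTPRC at 10.04.

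Direct comparisons between treatments gave few differences at an unadjusted p under 0.05. E2T against P4T had 1 gene, KLRK1 (1.44% of all probe sets), and 2 without the 2 arrays (1.61%), the second being ITGB2, lower in E2T by a difference of -0.47 ± 0.18 (adjusted p = 1 by limma). E2P4T against E2T had 0 genes (2.04%, and 1.56% without the 2 arrays), with 0 genes also at an adjusted p under 0.05. E2P4T against P4T had 2 genes (1.94%), MS4A1 and PRF1 (-0.7), and only MS4A1 without the 2 arrays (1.38%). The interaction of estradiol and progesterone had 1 gene (2.99%), the granzyme gene GZMB, named after its values were seen. GZMB was lower than CO in E2T by a difference of -0.75 and in P4T by -1.13, but not in E2P4T, -0.09, which gave an interaction of 1.8 ± 0.82 (adjusted p of 1 by limma). Without the 2 arrays the interaction of GZMB was 1.38, and 0 of the 32 genes passed (4% of all probe sets).

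Single arrays of a group also differed in these genes. Over the 26 arrays, the median within-group SD was 0.42 for leukocyte-wide, 0.55 for lymphoid, 0.51 for myeloid and 0.43 for antigen presentation genes, against 0.58 for all tested probe sets. CO replication 2 held the highest signal of the 26 arrays for 14 of the 32 genes (43.8%), against 6.3% of all tested probe sets. These 14 came from every gene group: LAPTM5, CORO1A, CD2, CD3D, CD3E, CD247, LCK, PRF1, CD68, TYROBP, AIF1, TLR2, BOLA-DRA and BOLA-DMB. CD247 was at 11.3 there and at 10.49 or lower on the rest of the 26. It had the lowest signal for 0 of the 32. Its mean over 7 red blood cell genes, 7.31, was also the highest of the 26 arrays, with a lowest of 4.6, and its hepatocyte mean of 15.55 was the median of the CO arrays. The part of blood in the biopsy in these values was not tested. By group, the red blood cell mean was 6.39 ± 0.9 in CO and 5.63 ± 0.75 in E2T, against 6.01 ± 0.78 under P4T and 5.57 ± 0.59 under E2P4T. Only 3 of the 7 red blood cell genes passed the filter on low signal. For E2T, these 3 had a median difference from CO of -0.16, where the mean over 7 genes differed by -0.75. The same pair of values read -0.43 and -0.38 for P4T, and -0.68 and -0.81 for E2P4T.

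**Figure D5:**
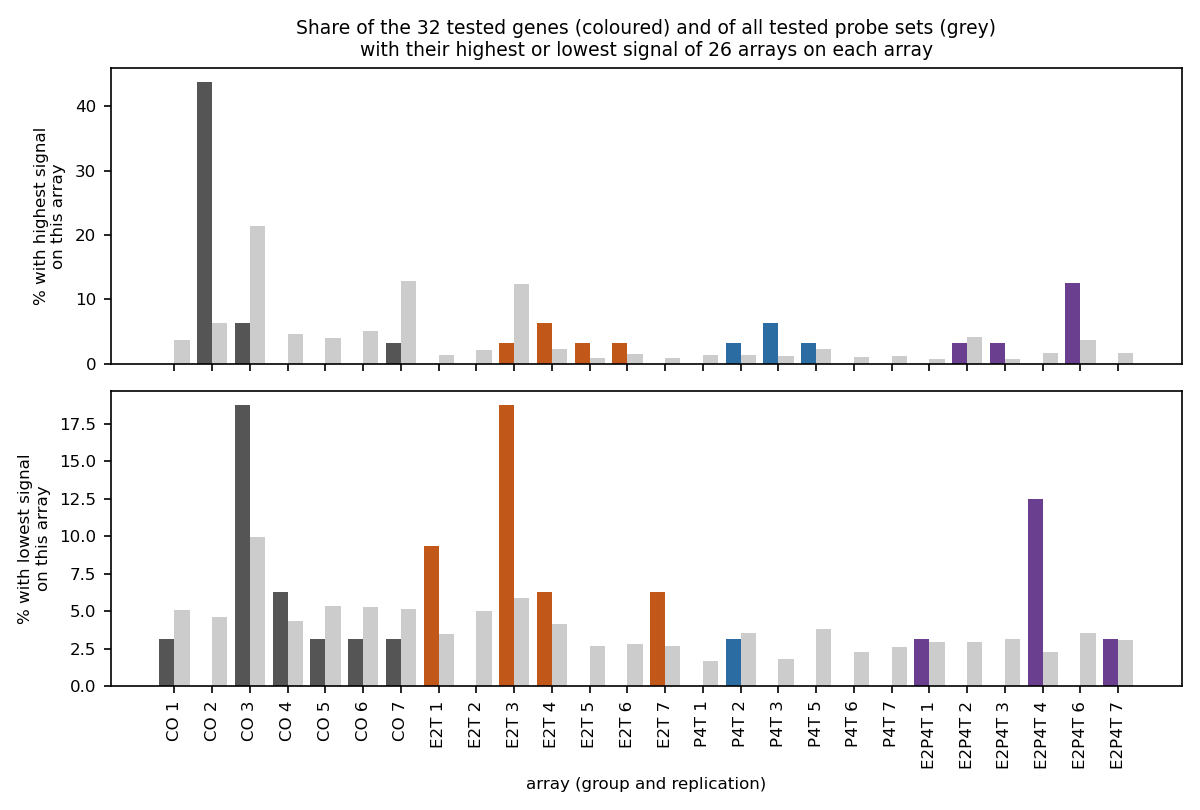
Share of the 32 tested genes (coloured by treatment) and of all tested probe sets (grey) that had their highest (top) or lowest (bottom) signal of 26 arrays on each array. CO replication 2 held the highest signal for 43.8% of the genes and for 6.3% of all probe sets, and CO replication 3 and E2T replication 3 each held the lowest signal for 18.8% of the genes.

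At the low end, CO replication 3 had the lowest signal of the 26 arrays for 6 genes (LAPTM5, CD3G, CD8A, NKG7, CD68 and CTSS) and E2T replication 3 for another 6 (ITGB2, CD14, CSF1R, TYROBP, BOLA-DRA and BOLA-DRB3), 18.8% each against 9.93% and 5.89% of all probe sets. E2P4T replication 4 had the lowest CORO1A, LCK, PRF1 and BOLA-DMB (12.5% against 2.24%). E2P4T replication 6 held the highest PTPRC, CD3G, BOLA-DRB3 and BOLA-DMA (12.5% against 3.65%). Arrays with many of the highest or lowest signals thus occurred in treated groups and in CO.

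Further leukocyte genes, outside the 46, were measured as well. Of 52 other lymphoid genes, 25 were tested, with a median difference of -0.31 in E2T (21 of 25 below CO), -0.14 in P4T (17 of 25) and -0.2 in E2P4T (19 of 25), where 59.8%, 53.7% and 51.7% of all probe sets were below CO, and 1 lower gene at an unadjusted p under 0.05 in each. Without the 2 arrays the P4T and E2P4T medians were -0.11 and -0.24, with 15 and 17 of 25 below CO. Of all probe sets, 59.1% in P4T and 58.5% in E2P4T were then below CO. The lower genes at that threshold were then 2 in E2T, 1 in P4T and 2 in E2P4T. LAT, the adaptor that links the T cell receptor to downstream signalling, differed by -0.65, -0.13 and -1.12, the last being past the unadjusted threshold and -0.7 without the 2 arrays. STAT4, a transcription factor that acts downstream of interleukin 12, differed by -0.73, -0.77 and -0.43, the first and the second being past that threshold, and by -0.72 in E2P4T without the 2 arrays. All had adjusted p of 0.87 or more with 28 arrays (limma).

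Of 71 other myeloid genes, 46 were tested, with medians of -0.11, 0.03 and -0.3 in E2T, P4T and E2P4T, the last of which was -0.04 without the 2 arrays. In E2T 1 of them was lower at an unadjusted p under 0.05, in P4T none was past it, and in E2P4T 1 was higher and 3 were lower. NCF1, a subunit of the phagocyte NADPH oxidase, differed by -0.58, -0.39 and -0.54, past it in E2T and E2P4T, and the kinase LYN by -0.03, 0.05 and -0.78, the last being past it and -0.28 without the 2 arrays. Of 33 other antigen presentation genes, 21 were tested, with medians of -0.04, -0.09 and -0.12 and 1 gene past the unadjusted threshold. This was BOLA-DQA2, a class II chain that was higher in E2T by 1.63 ± 0.78, with CO arrays from 6.42 to 12.72. BOLA-DOA, a chain of the DM regulator DO, differed by -0.61, -0.68 and -0.91, the last being -1.26 without the 2 arrays. The DQ and DR genes belong to a multigene family in cattle, and their probe sets may share signal.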

How the data were processed

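The authors hybridised biotin-labelled cRNA from liver mRNA to Affymetrix Bovine GeneChips, captured the data with the GCOS software and deposited MAS5 signal intensities (default settings) per probe set on a linear scale, without detection calls. Of these arrays, 28 were analysed here, and further CO and E2T arrays of the study were not. On every array the mean of the middle 96% of signals was 1000. Here, log2 intensities were filtered to the 78% of the 24016 non-control probe sets that reached the highest signals on any array (18732), and fitted with limma 3.58.1 in R 4.3.3 (lmFit with 1 coefficient per group, eBayes with trend, 24 residual degrees of freedom), with Benjamini-Hochberg adjustment over all of them. The study's model with cow and period was not fitted, because the labels give neither. The number of arrays limits the precision. Levels of different genes cannot be compared on this scale. Symbols came from the platform annotation: 13292 non-control probe sets had 1 symbol, 86 several and 10638 none, and probe sets with several were not used. No duplicate arrays were found (highest correlation between arrays 0.924). The genes and lists were chosen with earlier results of these data known. Values per group are given for genes with an unadjusted p under 0.05 against CO or in the F test, and in each gene group for the 3 with the lowest F test p and the 2 with the highest mean signal. In other lists the 2 with the lowest F test p are named, with values. Lists of platelet, endothelial, and stellate and fibroblast genes were also computed. Alternatives were quantile normalization, centring on the median, an offset of 50, other filters, array weights, no trend, a replicate block, the mean over probe sets, fits of 2 groups, leaving out arrays and, added after seeing the data, median centring without 2 arrays and a two-sided exact permutation test of single genes (3432 splits of 7 against 7 arrays). On simulated data for E2T against CO, 18732 probe sets with 50 changed per size, 28% of changes of 1 on the log2 scale and 66% of changes of 2 passed an adjusted p under 0.05. The simulated noise was normal and independent between arrays and probe sets, with the within-group SD of all 28 arrays. Shared cows and shifts of whole arrays were not simulated, so the shares for the real data may differ.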

Additional observations from a re-analysis of the deposited data

Results flagged for a closer look

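Of 144 sets of 7 arrays examined (32 genes and 4 gene group means within each treatment), 34 held an array far from the others by Dixon's criterion, which chance meets in about 1 set in 20. That rate holds for a single set. These sets share arrays, and the means share their genes, so the 34 are not independent and were not tested against it. In 23 of the 34 the far array was E2P4T replication 5 or P4T replication 4. E2P4T replication 5 was far below its group for the leukocyte-wide mean (6.56, others 8.88 to 9.39) and the myeloid mean (7.16, others 9.28 to 10.07). Its low single genes were LAPTM5 at 9.89, CORO1A at 4.93, ITGB2 at 4.07, PRF1 at 5.81, CD14 at 4.63, CD68 at 8.13, CSF1R at 5.91, TYROBP at 6.15, CTSS at 11.49, AIF1 at 8.87 and BOLA-DRA at 10.45. CD4, at 9.2 against 5.69 to 6.99, was far above. P4T replication 4 was far below its group for the antigen presentation mean, 9.31 against 10.57 to 11.01. Its single genes were LAPTM5 at 10.81, CORO1A at 8.63, CD3G at 3.36, CD14 at 10.59, CD68 at 10.04, BOLA-DRA at 11.31, BOLA-DRB3 at 9.74 and BOLA-DMA at 5.

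The remaining 11 lay on other arrays. E2T replication 3 was low for the antigen presentation mean (9.55, others 10.58 to 11.08), CD14 (9.95, others 12.5 to 13.72), AIF1 (11.77), BOLA-DRB3 (10.56) and BOLA-DMA (5.32, others 7.48 to 8.74). CO replication 1 was low for the antigen presentation mean (9.26, others 10.42 to 11.04) and BOLA-DMA (2.81, others 6.34 to 8.51). CD14 was low on CO replication 3 (10.83, others 12.05 to 12.9). KLRK1 was low on E2T replication 1 (3.77), TLR2 on E2T replication 7 (9.57), and CD8B, a co-receptor chain of cytotoxic T cells, on E2P4T replication 4 (5.06, others 8.01 to 9.38).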

How the results depend on the processing

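No gene passed an adjusted p under 0.05 (limma) under any of the 12 alternatives or with any single array left out, and none of the 12 single-gene differences from CO that were recomputed under them changed sign. With quantile normalization, the count of the 32 genes at an unadjusted p under 0.05 was 0 for E2P4T against P4T and 0 for the interaction. With arrays centred on their medians it was 2 for E2T against CO, 0 for E2P4T against P4T and 0 for the interaction. Over all probe sets the share of higher among those past this threshold in E2T was 27%, 51.1% with quantile normalization and 46% with median centring. With only probe sets above the median of mean signal (27 genes) it was 2 for E2T, 1 for E2P4T, 0 for E2T against P4T and 0 for the interaction, and the myeloid mean differed by 0.07 in E2T and 0.16 in P4T. Without E2P4T 5 and P4T 4 it was 3 in the F test, 3 for P4T, 4 for E2P4T, 2 for E2T against P4T, 1 for E2P4T against P4T and 0 for the interaction, with a myeloid difference of -0.21 in E2P4T. With array weights it was 4 in the F test, 7 for E2T, 2 for P4T, 2 for E2T against P4T, 1 for E2P4T against P4T and 4 for the interaction, with a myeloid difference of -0.2 in E2P4T. The weights also raised the calls over all probe sets, so the 7 genes in E2T are not a rise of these genes alone. In E2T, 1264 probe sets were then higher and 1905 lower past the threshold, against 274 and 742 without weights. Without a trend the count of the 32 genes was 1 for E2P4T and 1 for E2P4T against P4T. With the mean over probe sets it was 2 for P4T, and with fits of only the groups compared 0 for P4T, 0 for E2P4T, 2 for E2T against P4T and 1 for E2P4T against P4T. Median centring without the 2 arrays, chosen after seeing the data, gave 2 in the F test, 5 for P4T, 2 for E2T against P4T, 1 for E2P4T against P4T and a myeloid difference of -0.08 in E2P4T, and 2 of the 4 genes past the threshold in E2T were then higher, PTPRC and CD3G. All 5 in P4T were then higher (ITGB2, CD3G, MS4A1, CD68 and AIF1), whereas the 1 gene past it with all arrays and no centring, CD3E, was lower. This turn was not limited to the leukocyte genes. Of all probe sets past the threshold, 62.1% in E2T and 64.4% in P4T were then higher, against 27% and 34% with all arrays and no centring. The causes were not tested.

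With single arrays left out, the count was 0 to 3 in the F test, 2 to 4 for E2T, 0 to 2 for P4T, 1 to 5 for E2P4T, 0 to 2 for E2T against P4T, 0 to 1 for E2P4T against E2T, 0 to 4 for E2P4T against P4T and 0 to 3 for the interaction. The myeloid difference in E2P4T then ran from -0.69 to -0.21, the latter without E2P4T replication 5. The CD3E difference in E2T missed the threshold without CO 2, CO 3, E2T 2 or E2T 4, and that of BOLA-DMB in E2P4T without CO 2, CO 5, E2P4T 2, E2P4T 4 or E2P4T 5. BOLA-DMA in E2P4T missed it without any of 18 arrays, and also in the exact permutation test added after seeing the data (p = 0.087).

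The replication numbers were not taken to pair the arrays, since the labels do not tie them to cows: deviations of same-numbered arrays from their group means had correlations from -0.21 to 0.32 (mean 0.049, against -0.0033 for different numbers), and 14 of 42 pairs were over 0.1. As a hint from the data, 11 of 28 arrays matched best an array of their own number. With the replicate block, 1 gene instead of 2 passed for E2P4T against P4T, and for E2P4T against CO IL34 passed beside BOLA-DMA and BOLA-DMB. MAS5 signals come without detection calls, so dim genes such as IL34 and KLRK1 have no stated background. In the simulation, 6% of changes of 0.5 on the log2 scale passed an adjusted p under 0.05.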

Other observations

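Genes of hepatocytes, sinusoidal endothelium and matrix-forming cells were measured beside the leukocyte genes. The acute-phase gene HP, which encodes haptoglobin, had lower means in all treatments, with differences of -2.82, -2.3 and -3 in E2T, P4T and E2P4T (adjusted p of 0.87 or more by limma). APOA1, the main protein of high-density lipoprotein, differed by -0.08, -0.4 and -1.38, the last being -0.42 without E2P4T replication 5 and P4T replication 4. The mean of the 20 hepatocyte genes was 15.6 ± 0.16 in CO, 15.31 ± 0.18 in E2T and 15.3 ± 0.22 in P4T, and in E2P4T 14.57 ± 2, or 15.32 ± 0.31 without replication 5. STAB1, a scavenger receptor of sinusoidal endothelium, differed by -0.5, -0.31 and -0.73, and ENG, an endothelial co-receptor of the TGF-beta family, by -0.59, -0.48 and -0.28. The endothelial list did not go the same way: its 8 tested genes had median differences of 0.16, 0.17 and -0.14. Above CO were 5 of the 8 in E2T, 5 in P4T and 4 in E2P4T. LUM, a matrix proteoglycan, differed by 0.74, 0.66 and 0.72, and ACTA2, smooth muscle actin, by 0.26, -0.33 and -0.09. Of the red blood cell genes, RHAG differed by -0.78, -0.43 and -1.21, and HBB, a globin, by -0.16, -0.55 and -0.68. Of the platelet integrin chains, ITGB3 differed by 0.09, -0.12 and -0.52 and ITGA2B by -0.22, -0.89 and -0.04. The bile duct genes EPCAM and SPP1 differed in E2P4T by 1.08 and 1.37, and by 0.63 and -0.17 without the 2 arrays. The kidney transporter genes SLC12A3 and SLC22A6 differed in E2P4T by 1.44 and 1.06, and by 0.74 and 0.43 without these arrays. The mean of the 4 platelet genes was 7.7 ± 0.62 in CO and 7.64 ± 0.44 in E2T, against 7.45 ± 0.37 under P4T and 7.4 ± 0.38 under E2P4T. None of these differences passed an adjusted p under 0.05.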
